A study of Mus musculus with 4 samples.

Results

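Transcripts of 9 genes that write, remove or read DNA methylation were followed in sorted cells of the mouse retina at postnatal day 12 (P12). The genes were Dnmt1, Dnmt3a, Dnmt3b, Uhrf1, Tet1, Tet2, Tet3, Mbd2 and Mbd3, picked by name out of 21834 genes, and each had 1 row whose estimate was marked OK in 4 of 4 libraries. Cd73 is the ecto-enzyme product of Nt5e and marks rods and their precursors, and by its staining retinal cells were sorted into a Cd73-positive (Cd73P) and a Cd73-negative (Cd73N) fraction. Each fraction came from wild-type (WT) littermates and from Ezh2-cKO mice, in which Ezh2-floxed alleles are cut by a DKK3-Cre transgene active in retinal progenitors from early embryonic life. The mice were of the slc:ICR stock and carried no rd1 or rd8 mutation. The labels name no treatment. Ezh2 encodes the histone H3 lysine methyltransferase of Polycomb repressive complex PRC2. There was 1 library per group, and how many P12 retinas went into each was not stated. Cells that do not derive from retinal progenitors, such as blood vessels and microglia, are not targets of this Cre.

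Methylation of cytosine in CpG dinucleotides is a mark generally tied to gene silencing. Dnmt3a and Dnmt3b place it on unmodified DNA, and Dnmt1 copies it onto the new strand after replication, guided by Uhrf1, which binds hemimethylated sites. The TET dioxygenases oxidise 5-methylcytosine to 5-hydroxymethylcytosine, a step toward removal of the mark and a modification abundant in neurons. Mbd2 binds methylated CpG, whereas mammalian Mbd3 binds it poorly, and both are alternative subunits of the NuRD chromatin remodelling and deacetylase complex. Rods of the mouse are known for an unusually compact, inverted nucleus, and their DNA methylation differs from that of other retinal neurons.

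Values are FPKM, fragment counts corrected for the length of each gene's exons and for sequencing depth, so levels of different genes can be set side by side. The error given with a value is the standard error (SE) implied by the confidence bounds deposited with it, which covers counting error within 1 library. It says nothing of spread between animals or sorts, so no difference between groups was tested and no p-value is given. The log2 ratio below means the difference of log2(FPKM + 1), which understates the ratio of weakly expressed genes, and a ratio past 1.5-fold on that scale (0.58 in log2) was counted as higher or lower.

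The sort and the labels were checked first. Nt5e stood at 0.844 and 0.609 FPKM in Cd73N of WT and Ezh2-cKO and at 125 and 123 in Cd73P. All 11 rod markers that could be compared, Nt5e among them, were higher in Cd73P in both genotypes, and their summed FPKM was 1349.9 and 1308 in Cd73N against 17291 and 23759.7 in Cd73P. Ezh2 stood at 14.1 FPKM in the Cd73N library labelled WT and at 15.9 in the Cd73N library labelled Ezh2-cKO, and at 5.38 and 3.45 in Cd73P. A gene total does not show whether the floxed exons were missing, so the genotype is taken from the label in what follows. Xist was at 52.2 and 47.0 FPKM in the WT libraries and at 240 and 95.6 in those labelled Ezh2-cKO, and 4 Y-linked genes summed to 26.8 and 27.9 against 0.716 and 0.496. Genotype and sex therefore cannot be told apart in these libraries. No member lies on the X or Y chromosome. Relative depth inferred from the bounds was between 1 and 1.17, and between 10325 and 12713 genes reached an FPKM of 1.

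The promoters of 4 of the 5 members that passed 1.5-fold between the fractions are shown, 2 higher and 2 lower in Cd73P, a choice made after their values were seen. Each sequence is the 250 bases before an annotated RefSeq start on build GRCm38.p6, read 5′ to 3′ on the gene's strand, with CpG dinucleotides in capitals. Tet3 (chr6:83441679-83441928, minus strand) and Tet2 (chr3:133544391-133544640, minus strand) were higher in Cd73P. Tet1 (chr10:62887325-62887574, minus strand) and Dnmt1 (chr9:20952980-20953229, minus strand, the second of 3 annotated starts) were lower there.
Tet3: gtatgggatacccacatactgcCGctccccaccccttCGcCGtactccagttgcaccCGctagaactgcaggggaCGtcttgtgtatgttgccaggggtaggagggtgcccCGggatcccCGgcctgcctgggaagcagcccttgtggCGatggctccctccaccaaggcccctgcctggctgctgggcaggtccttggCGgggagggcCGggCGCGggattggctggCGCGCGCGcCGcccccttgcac
Tet2: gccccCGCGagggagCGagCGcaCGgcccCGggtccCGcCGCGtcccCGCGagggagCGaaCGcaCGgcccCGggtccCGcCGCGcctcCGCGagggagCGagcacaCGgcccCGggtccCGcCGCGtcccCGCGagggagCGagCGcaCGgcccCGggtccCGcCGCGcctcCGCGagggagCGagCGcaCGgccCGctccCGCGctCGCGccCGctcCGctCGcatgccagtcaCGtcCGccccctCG
Tet1: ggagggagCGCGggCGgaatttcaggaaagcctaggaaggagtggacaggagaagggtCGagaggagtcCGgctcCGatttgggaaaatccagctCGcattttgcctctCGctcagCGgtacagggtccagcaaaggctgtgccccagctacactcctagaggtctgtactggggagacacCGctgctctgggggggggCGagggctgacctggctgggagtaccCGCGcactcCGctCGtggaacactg
Dnmt1: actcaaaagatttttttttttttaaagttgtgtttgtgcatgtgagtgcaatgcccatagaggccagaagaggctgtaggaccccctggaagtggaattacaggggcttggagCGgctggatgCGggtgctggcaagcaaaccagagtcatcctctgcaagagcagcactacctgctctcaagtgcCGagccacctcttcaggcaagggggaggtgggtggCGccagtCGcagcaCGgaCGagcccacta
The Tet2 window held 51 CpG, at the 99.9 percentile of the 32851 promoter windows in the table, whose median was 6. The Tet3 window held 17, the Tet1 window 15 and the Dnmt1 window 7, the 77.4, 73.6 and 55.3 percentiles. The other Dnmt1 windows held 2 and 26 CpG (the 23.9 and 90.9 percentiles), so the CpG content of Dnmt1 depends on the start that is used. Of 9 members, 8 matched the table with 13 windows in all. The letters TAATCC, the core read by Crx-type homeodomain factors of photoreceptors, and the E2F-type letters TTTCCCGC and TTTGGCGC were searched on both strands. They were found in 6.25%, 0.895% and 0.417% of all windows and in 0 of the 13 member windows. That absence concerns these letters in these 250 bases and nothing else.

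Dnmt1, the maintenance methyltransferase (mm9 chr9:20711650-20764332, minus strand), was higher in the Cd73-negative fraction. Its level was 23.3 ± 0.427 FPKM (SE of counting) in Cd73N WT, 15.7 ± 0.329 in Cd73N Ezh2-cKO, 5.90 ± 0.181 in Cd73P WT and 4.21 ± 0.149 in Cd73P Ezh2-cKO. Both Cd73P values lay below both Cd73N values, and within each fraction the library labelled Ezh2-cKO was the lower. In WT the Cd73N level was 3.95 times that in Cd73P (interval of 2 SE on either side, 3.68 to 4.25), and in Ezh2-cKO it was 3.72 times (3.43 to 4.04). In a sorted bulk sample, fewer cells that express a gene and less RNA per cell cannot be told apart.

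Dnmt3a, a methyltransferase that works on unmodified DNA (chr12:3806980-3914443, plus strand), was by contrast nearly level between the fractions as deposited. It stood at 35.0 ± 0.418 and 31.7 ± 0.391 FPKM in Cd73N of WT and Ezh2-cKO and at 38.9 ± 0.415 and 36.8 ± 0.390 in Cd73P. The log2 ratio of Cd73P to Cd73N was 0.15 in WT and 0.21 in Ezh2-cKO, short of the 1.5-fold threshold. That levelness depends on the scaling described below. With the median gene of each pair set to 0 the ratio was 0.45 in both genotypes. With equal FPKM sums it was 0.56 in WT and 0.41 in Ezh2-cKO, still short of the threshold. An antisense transcript, Gm10485, and a microRNA gene overlap the span of this locus on the other strand. The kit did not mark strand, so any of their reads on Dnmt3a exons would be counted with it. Overlap of exons was not examined. As deposited, Dnmt1 was lower and Dnmt3a nearly level in Cd73P. The ratio of Dnmt3a to Dnmt1 went from 1.499 and 2.03 in Cd73N to 6.59 and 8.76 in Cd73P.

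Dnmt3b and Uhrf1 were scarce everywhere. Dnmt3b (chr2:153475190-153513466, plus strand, overlapped by the antisense transcript 7530422B04Rik) was at 0.488 ± 0.0529 and 0.636 ± 0.0563 FPKM in Cd73N of WT and Ezh2-cKO and at 0.225 ± 0.0380 and 0.379 ± 0.0473 in Cd73P. Uhrf1, the cofactor that brings Dnmt1 to replicated DNA (chr17:56442760-56462909, plus strand), was at 0.301 ± 0.0465 and 0.612 ± 0.0606 in Cd73N and at 0.0306 ± 0.0186 and 0.141 ± 0.0313 in Cd73P. These were the only members under 1 FPKM in any library. In Cd73P WT the Uhrf1 value rests on about 2.72 fragments as implied by its bounds, so its ratio of 9.81 between Cd73N and Cd73P carries an interval of 2.81 to 34.3. At this depth the Cd73P level of Uhrf1 in WT was within 2 SE of 0. The Dnmt1 transcripts of Cd73P were thus accompanied by very little Uhrf1 transcript.

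The TET genes divided by fraction. Tet3, the most abundant of them (chr6:83312368-83391672, minus strand), was at 17.7 ± 0.240 FPKM in Cd73N WT and 14.9 ± 0.201 in Cd73N Ezh2-cKO and at 60.7 ± 0.471 and 59.4 ± 0.459 in Cd73P. Both Cd73P libraries were far above both Cd73N libraries, by 3.42 times in WT (3.32 to 3.53) and 3.996 times in Ezh2-cKO (3.87 to 4.12). In the Cd73P libraries Tet3 lay above 95.9% of all genes by FPKM, and it was the highest of the 9 members there.

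Tet2, the TET protein that lacks a CXXC domain of its own (chr3:133126641-133207354, minus strand), was at 4.04 ± 0.120 and 6.20 ± 0.137 FPKM in Cd73N of WT and Ezh2-cKO and at 12.0 ± 0.228 and 13.0 ± 0.240 in Cd73P. It was 2.96 times higher in Cd73P in WT (2.76 to 3.18) and 2.099 times higher in Ezh2-cKO (1.98 to 2.22), and the levels of the fractions did not overlap. The smaller ratio in Ezh2-cKO came with a higher Cd73N value in that library rather than a lower Cd73P value.

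Tet1 (chr10:62267318-62342762, minus strand), best known from pluripotent and progenitor cells, took the opposite course. Its level was 4.92 ± 0.106 and 4.79 ± 0.0984 FPKM in Cd73N of WT and Ezh2-cKO and 1.95 ± 0.0588 and 1.01 ± 0.0399 in Cd73P. Cd73N thus held 2.52 times the Cd73P level in WT (2.34 to 2.71) and 4.73 times in Ezh2-cKO (4.33 to 5.17). Summed over the 3 TET genes, FPKM was 26.7 and 25.9 in Cd73N and 74.6 and 73.4 in Cd73P. Tet3 supplied 66.4% and 57.5% of that sum in Cd73N and 81.3% and 80.9% in Cd73P, while Tet1 went from 18.4% and 18.5% to 2.62% and 1.38%.

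The 3 methyltransferases summed to 58.8 and 48.0 FPKM in Cd73N of WT and Ezh2-cKO and to 45.0 and 41.4 in Cd73P. The ratio of TET to Dnmt transcripts was therefore 0.454 and 0.538 in Cd73N and 1.66 and 1.77 in Cd73P. In words, methyltransferase transcripts outnumbered TET transcripts per length in the Cd73-negative cells, and TET transcripts outnumbered methyltransferase transcripts in the rod fraction.

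**Figure D1:**
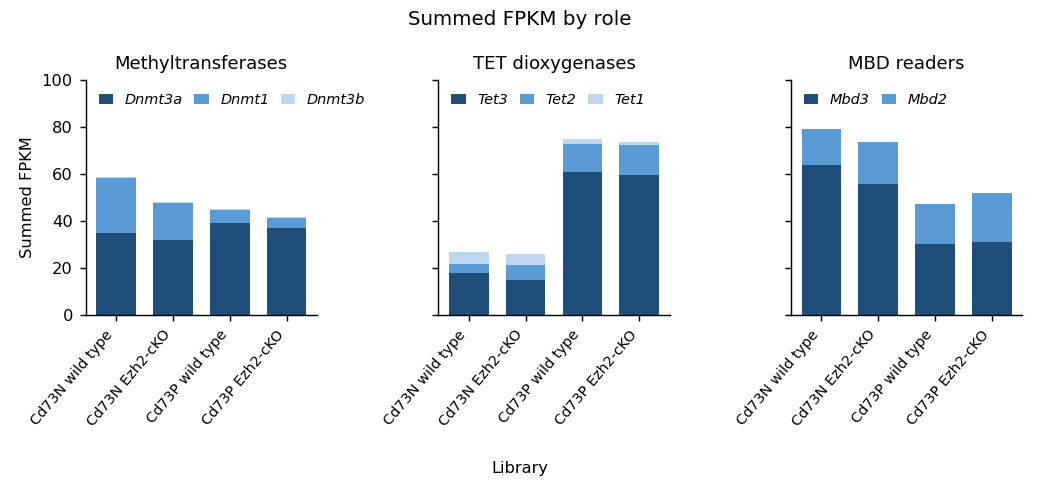
Stacked bars of FPKM (vertical axis, linear, from 0) for the methyltransferases, the TET dioxygenases and the MBD readers in the 4 libraries (horizontal axis), 1 library per bar and no error shown. The TET bars stand at 26.7 and 25.9 in Cd73N and at 74.6 and 73.4 in Cd73P, and most of the height in Cd73P is Tet3.

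Of the readers, Mbd2 (chr18:70727946-70785785, plus strand) was at 15.3 ± 0.563 and 17.7 ± 0.503 FPKM in Cd73N of WT and Ezh2-cKO and at 16.9 ± 0.580 and 20.9 ± 0.592 in Cd73P. The fractions overlapped, and no log2 ratio of Mbd2 passed the threshold. With the median gene of each pair set to 0, its Cd73P to Cd73N ratio was 0.43 in WT and 0.47 in Ezh2-cKO. With equal FPKM sums it was 0.53 and 0.43. Mbd3 (chr10:79855286-79862224, minus strand) was at 63.6 ± 1.17 and 55.7 ± 0.983 in Cd73N and at 30.1 ± 0.819 and 30.9 ± 0.835 in Cd73P, so Cd73N held 2.11 times the Cd73P level in WT (1.98 to 2.26) and 1.803 times in Ezh2-cKO (1.69 to 1.92). For Mbd2 and Mbd3 the deposited FPKM was larger than its upper bound in each library, so their SE rests on bounds that miss the value. Taking the midpoint of the bounds in place of FPKM moved none of the 36 member ratios by more than 2 SE.

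The order of the members differed between the fractions. In Cd73N WT it ran from Mbd3 through Dnmt3a, Dnmt1, Tet3, Mbd2, Tet1 and Tet2 to Dnmt3b and Uhrf1, and the last pair was not apart by more than 2 SE. In Cd73N Ezh2-cKO Mbd2 stood above Dnmt1 and Tet3, and Tet2 above Tet1, and neither Dnmt1 and Tet3 nor Dnmt3b and Uhrf1 were apart. The deposited bounds of Mbd2 there (15.1 to 17.1) missed its FPKM of 17.7 and overlapped those of Dnmt1 (15.1 to 16.4). The place of Mbd2 above Dnmt1 thus rests on an FPKM outside its own bounds. In both Cd73P libraries the order was Tet3, Dnmt3a, Mbd3, Mbd2, Tet2, Dnmt1, Tet1, Dnmt3b and Uhrf1, with each neighbour apart by more than 2 SE of counting. Dnmt1 thus ranked above Tet2 in Cd73N and below it in Cd73P, and Tet3 ranked below Mbd3 and Dnmt3a in Cd73N and above both in Cd73P.

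**Figure D2:**
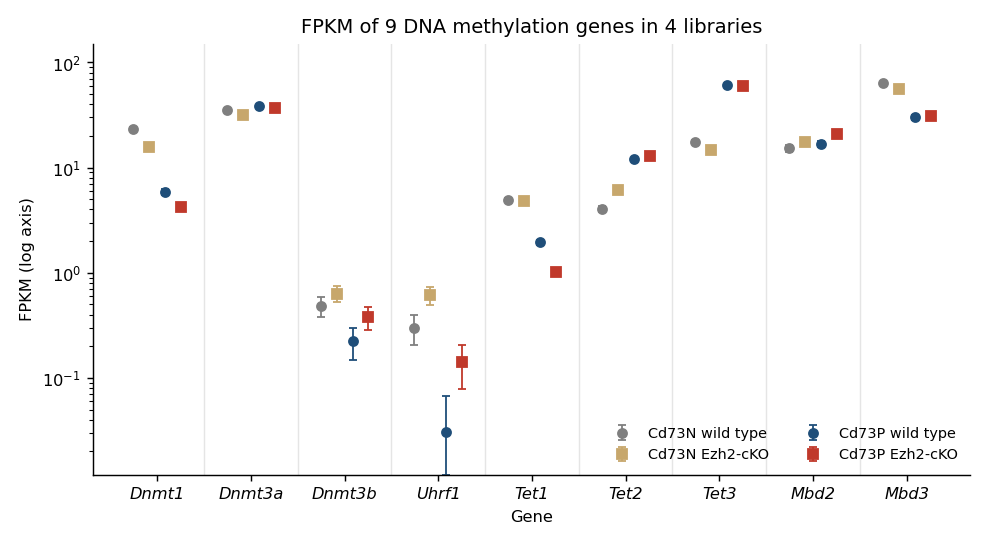
FPKM (vertical axis, logarithmic) of the 9 members (horizontal axis) in the 4 libraries, with bars of 2 SE of counting on either side; the bar of Uhrf1 in Cd73P WT reaches below the axis. Tet3 and Tet2 sit higher in the 2 Cd73P libraries, Dnmt1, Tet1 and Mbd3 lower, and Dnmt3a is near level at 31.7 to 38.9.

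Between fractions, 2 members were higher in Cd73P (Tet2 and Tet3), 3 were lower (Dnmt1, Tet1 and Mbd3) and 4 did not pass 1.5-fold, in WT and in Ezh2-cKO alike. The WT log2 ratios were 1.72 (SE 0.021) for Tet3, 1.36 (SE 0.043) for Tet2, -1.002 (SE 0.039) for Tet1, -1.05 (SE 0.046) for Mbd3 and -1.82 (SE 0.045) for Dnmt1. In Ezh2-cKO they were 1.93, 0.96, -1.53, -0.83 and -1.68 in the same order. Of all genes tested, 9.07% were higher in Cd73P and 27.9% lower in WT, and 8.41% and 29.1% in Ezh2-cKO. Among genes with an FPKM of at least 1 in either library, 15.4% were higher and 45.9% lower in WT, and 13.8% and 45.6% in Ezh2-cKO. The 3 members lower and the 2 higher in Cd73P are thus both close to what these shares would give for so small a set. Over all genes as deposited, higher in Cd73P, as Tet2 and Tet3 were, was the less common direction. The median log2 ratio of the members was -0.28 in WT and -0.25 in Ezh2-cKO, against -0.05 and -0.09 over all genes and -0.47 and -0.46 over genes reaching 1 FPKM.

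Beyond the depth correction of FPKM, the values are not scaled between libraries, and lower genes outnumbered higher ones. The median gene, here and below, is the median over genes reaching 1 FPKM in both libraries of a pair. Setting the median gene of the pair to 0 raised every Cd73P to Cd73N ratio by 0.30 in WT and 0.24 in Ezh2-cKO, and equal FPKM sums raised them by a median of 0.37 and 0.19. In WT the count over all genes then went from 1969 higher and 6056 lower to 3133 and 4369 with the median, and to 3222 and 4353 with the sums. In Ezh2-cKO it went from 1825 higher and 6317 lower to 2697 and 4905 with the median. The same 5 members passed 1.5-fold in the same direction under either scaling in both genotypes. In Ezh2-cKO Mbd3 passed only barely, at -0.588 with the median gene set to 0 against a threshold of 0.585 (counting SE 0.045). Relative to the median gene, the log2 ratio was 2.02 for Tet3, 1.66 for Tet2, -0.70 for Tet1, -0.76 for Mbd3 and -1.52 for Dnmt1 in WT. Dnmt3b had a log2 ratio of -0.28 in WT as deposited, of 0.02 with the median set to 0 and of -0.18 with equal sums, and its FPKM ratio of Cd73P to Cd73N was 0.462 (0.309 to 0.690) in WT and 0.596 (0.438 to 0.809) in Ezh2-cKO.

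Other cell types moved with the fractions. All 10 Müller glia markers and all 8 cone markers were lower in Cd73P in both genotypes, as were 9 of 10 bipolar and all 7 microglia markers. Summed FPKM in Cd73N of WT and Ezh2-cKO and then in Cd73P was 1080.1, 5580, 114 and 238 for Müller glia, 2706, 4078, 166 and 86.9 for cones, and 2588, 1417, 192 and 66.0 for bipolar cells. For microglia it was 83.7, 124, 16.9 and 23.3. Amacrine markers (6 of 8 in the tables) summed to 31.7, 77.7, 28.8 and 24.7, endothelial markers (6) to 32.0, 97.7, 8.29 and 7.28, ganglion cell markers (7) to 14.9, 40.0, 2.68 and 1.77, and horizontal cell markers (4) to 1.27, 1.89, 0.362 and 0.375. Of these 4 lists, 3 amacrine, 2 endothelial, 4 ganglion cell and 1 horizontal cell marker were lower in Cd73P in WT, and 4, 3, 5 and 1 in Ezh2-cKO, while 1 amacrine marker (Slc6a9, log2 ratios 1.75 and 1.17) and 1 endothelial marker (Pecam1, 0.75 and 0.90) were higher in both genotypes. Only Pou4f2, a ganglion cell marker, was listed at 0, in Cd73P WT. In Cd73N the amacrine, endothelial and ganglion cell sums were higher in Ezh2-cKO mainly through 1 gene each, named after its values were seen. These were Pax6 (20.4 FPKM in WT and 63.5 in Ezh2-cKO), Kdr (22.6 and 86.2) and Thy1 (6.52 and 30.3). The part of the cell types of this paragraph in the member values was not tested.

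Between genotypes, no member passed 1.5-fold in either fraction, so 0 were higher, 0 lower and 9 short of the threshold in Cd73N and in Cd73P. Of all genes, 7.19% were higher and 1.71% lower in the Ezh2-cKO library of Cd73N, and 2.27% higher and 2.39% lower in that of Cd73P. Among genes reaching 1 FPKM these shares were 11.6% and 2.86% in Cd73N and 4.33% and 4.54% in Cd73P. With shares this small, 0 of 9 is close to what all genes would give. Equal FPKM sums changed the Cd73N split from 1560 higher and 371 lower to 1980 and 194. The median over the members was -0.03 in Cd73N and 0.04 in Cd73P, against 0 over all genes in both.

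The differences of Dnmt1, Tet2 and Tet1 came closest to the threshold. Dnmt1 had a log2 ratio of -0.55 (SE 0.038) in Cd73N and -0.41 (SE 0.056) in Cd73P, and WT held 1.49 times (1.41 to 1.57) and 1.402 times (1.28 to 1.54) the Ezh2-cKO level. Tet2 had a log2 ratio of 0.51 (SE 0.044) in Cd73N, where its FPKM in Ezh2-cKO was 1.53 times that in WT (1.42 to 1.65), and of 0.11 in Cd73P. Tet1 had a log2 ratio of -0.55 (SE 0.041) in Cd73P, where WT held 1.93 times the Ezh2-cKO level (1.75 to 2.13), and of -0.03 in Cd73N, which became 0.02 with the median gene set to 0 and 0.09 with equal sums. Dnmt1 was the one of these with a similar ratio in both fractions.

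The other members changed less on this scale. The log2 ratio of Uhrf1 was 0.31 in Cd73N and 0.15 in Cd73P, although its FPKM ratio without the added 1 was 2.04 (1.41 to 2.94) in Cd73N and 4.62 (1.27 to 16.8) in Cd73P. Dnmt3b had 0.14 and 0.17, and its FPKM ratio without the added 1 was 1.30 (0.985 to 1.72) in Cd73N and 1.68 (1.10 to 2.56) in Cd73P. Mbd2 had log2 ratios of 0.20 and 0.29. Dnmt3a had -0.14 in Cd73N, or 0.01 with equal sums, and -0.08 in Cd73P. Tet3 had -0.24 in Cd73N and -0.03 in Cd73P, the latter 0.01 with the median gene set to 0. Mbd3 had -0.19 in Cd73N and 0.04 in Cd73P, the latter -0.01 with equal sums. As deposited, 8 of 9 members (88.9%) had the same sign in both fractions, as did 58.8% of 13109 genes reaching 1 FPKM, and the member count went to 6 with the median gene set to 0 and to 7 with equal sums.

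Cell type markers also moved with the genotype label. In Cd73N, all 10 Müller glia markers were higher in Ezh2-cKO (median log2 ratio 2.11, summed FPKM 1080.1 against 5580) and 6 of 10 bipolar markers were lower (median -0.84). In Cd73P, 7 of 10 Müller glia markers were higher (median 0.93), 8 of 10 bipolar markers (median -1.63) and 6 of 8 cone markers (median -0.80) were lower, and 2 of 11 rod markers were higher. Also in Cd73N, 3 of 8 cone and 3 of 7 microglia markers were higher in Ezh2-cKO, and 2 amacrine, 1 endothelial and 1 ganglion cell marker, whereas 5 of 11 rod markers (median -0.22) and 1 ganglion cell marker (Sncg, -0.85) were lower. Their part in the differences of Dnmt1, Tet1 and Tet2 was not tested.

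**Figure D3:**
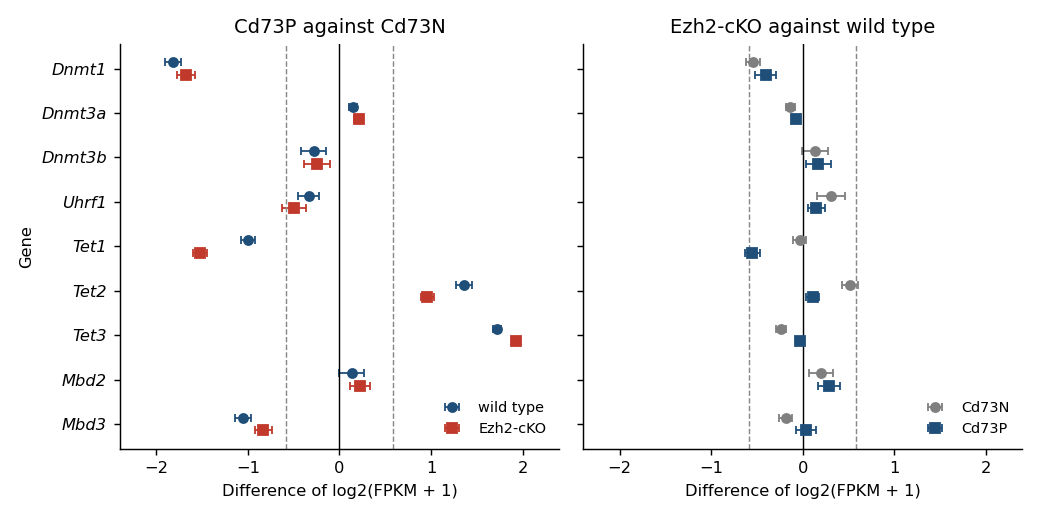
Difference of log2(FPKM + 1) (horizontal axis) for each member (vertical axis), Cd73P against Cd73N on the left and Ezh2-cKO against wild type on the right, with bars of 2 SE of counting on either side and dashed lines at 1.5-fold. On the left Tet2 and Tet3 lie beyond the right line and Dnmt1, Tet1 and Mbd3 beyond the left line in both genotypes; on the right every point lies between the lines.

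The members were then set beside 55 other genes of the pathway in 5 lists. Between fractions, 3 of the 55 were higher in Cd73P and 23 lower in WT (median -0.41), and 4 were higher and 24 lower in Ezh2-cKO (median -0.52). Among genes reaching 1 FPKM in either library, 15.4% were higher and 45.9% lower in WT, and 13.8% and 45.6% in Ezh2-cKO. Between genotypes, 1 of the 55 was higher and 1 lower in Cd73N, and 0 were higher and 3 lower in Cd73P. Those shares between genotypes were 11.6% higher and 2.86% lower in Cd73N, and 4.33% and 4.54% in Cd73P. The counts of each list below stand beside these shares. Among the members, among these genes and over all genes, fraction differences thus outnumbered genotype differences, though the shares themselves were not alike.

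Among 10 other writers and partners, 0 were higher and 2 lower in Cd73P in both genotypes. The lower ones were Trim28, a corepressor that recruits silencing enzymes to zinc finger proteins (84.5, 59.6, 37.5 and 34.3 FPKM in Cd73N WT, Cd73N Ezh2-cKO, Cd73P WT and Cd73P Ezh2-cKO), and Ehmt2, a histone H3K9 methyltransferase (43.0, 35.3, 19.4 and 20.5). Pcna, the sliding clamp to which Dnmt1 binds during replication, had 78.5, 74.97, 58.7 and 53.5 FPKM and passed in neither genotype. Dnmt3l, the inactive partner of Dnmt3a in germ cells, was listed at 0 in 3 libraries and at 0.0431 FPKM in Cd73P Ezh2-cKO. Dnmt3l was thus barely detectable at this depth beside 31.7 to 38.9 FPKM of Dnmt3a.

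A place in the list of other readers does not by itself mean binding to methylated CpG. Its 8 genes were near level, with 1 higher and 0 lower in Cd73P in each genotype. These were Mbd4 in WT and Zbtb38 in Ezh2-cKO, named after their values were seen, with log2 ratios of 0.62 and 0.64. Mbd6 was at 32.6, 38.0, 33.6 and 25.4 FPKM in the same library order and Zbtb4, a zinc finger protein that binds methylated CpG, at 9.33, 12.7, 13.4 and 16.1, and neither passed in any comparison. Mbd2 likewise passed in no comparison, whereas Mbd3 was lower in Cd73P.

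Of 11 further NuRD subunits, 7 were lower in Cd73P in each genotype, and 0 were higher in WT and 1 (Mta2, named after its values were seen) in Ezh2-cKO. The histone-binding subunits Rbbp4 (93.6, 69.4, 42.7 and 38.7 FPKM) and Rbbp7 (72.3, 68.5, 38.4 and 35.4) and the deacetylase Hdac2 (89.5, 66.1, 41.6 and 33.2) stood lower in Cd73P, as Mbd3 did. Their WT log2 ratios were -1.12, -0.90 and -1.09, beside -1.05 for Mbd3. The list median was -0.98 in WT and -0.83 in Ezh2-cKO, and the 7 of 11 stand beside the 45.9% and 45.6% of genes reaching 1 FPKM that were lower. Between genotypes, 1 subunit passed, Chd3, which was lower in Ezh2-cKO in Cd73N (log2 ratio -0.69) and was named after its values were seen.

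Of 12 erasure partners, 6 were lower in Cd73P in each genotype, beside 45.9% (WT) and 45.6% (Ezh2-cKO) of genes reaching 1 FPKM. In each genotype 1 partner was higher. The higher one was Gadd45a, a stress-induced protein linked to active demethylation, at 25.7, 19.3, 105 and 96.3 FPKM, which gave log2 ratios of 1.99 in WT and 2.26 in Ezh2-cKO. Tdg, the glycosylase that excises the oxidised bases that TET enzymes make, was at 5.16, 3.55, 2.57 and 3.51 FPKM. It was lower in Cd73P in WT (-0.79) and level in Ezh2-cKO (-0.01). Cxxc5 (82.7, 71.8, 62.3 and 48.7) and the isocitrate dehydrogenase Idh1 (41.4, 39.2, 32.4 and 32.1) passed in no comparison. Between genotypes, Ogt, the X-linked enzyme that binds TET proteins, was the 1 partner higher in Ezh2-cKO in Cd73N (log2 ratio 1.21). Smug1, Apex1 and Gadd45g were lower in Ezh2-cKO in Cd73P (-0.85, -0.71 and -0.78), and these 4 genes were named after their values were seen.

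Genes of DNA replication and division were included because Dnmt1 and Uhrf1 act at replication. Of 14, 1 was higher and 8 lower in Cd73P in WT, and 1 higher and 9 lower in Ezh2-cKO, and 5 were already under 1 FPKM in Cd73N WT and 9 in Cd73P WT. Among genes reaching 1 FPKM in either library, 45.9% were lower in WT and 45.6% in Ezh2-cKO, and of all genes 27.9% and 29.1%. The helicase subunits Mcm7 (16.4, 11.6, 3.87 and 3.52 FPKM) and Mcm6 (7.83, 7.02, 0.896 and 0.757) were lower in Cd73P, as Dnmt1 was, whereas the cyclin gene Ccna2 was higher (1.41, 1.88, 7.01 and 6.40). The summed level of the list was 45.5, 38.6, 18.4 and 16.8 FPKM. Dnmt1 at 23.3 FPKM in Cd73N WT stood above each of the 14.

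**Figure D4:**
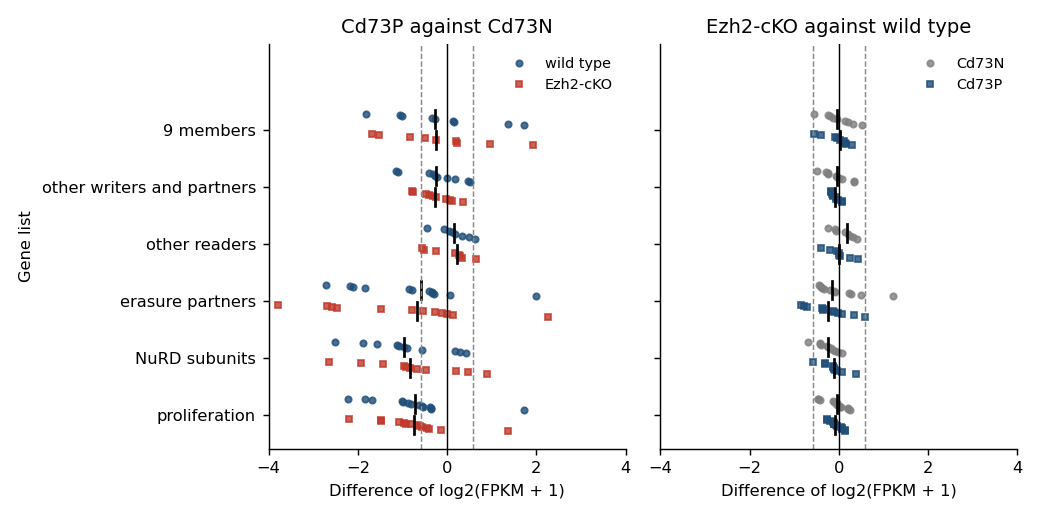
Difference of log2(FPKM + 1) (horizontal axis) for the 9 members and the genes of 5 pathway lists (vertical axis, 1 point per gene, black bars at the list medians), Cd73P against Cd73N on the left and Ezh2-cKO against wild type on the right, with dashed lines at 1.5-fold. NuRD subunits centre at -0.98 and -0.83 on the left, and on the right few points of any list lie outside the lines.

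The genes whose profile over the 4 libraries was most like that of each member were found by the smallest Euclidean distance between centred log2(FPKM + 1) values, among genes within 2-fold of the member's mean FPKM. For Tet3 the nearest of 2836 genes were Ccdc117, Elmod2 and Ppm1n (distances 0.085 to 0.113), and for Tet2 the nearest of 5044 were Mll2, Cd247 and Zkscan2 (0.036 to 0.089). Mll2, a histone H3K4 methyltransferase gene, was at 2.50, 3.85, 7.75 and 8.62 FPKM in the order used above. For Dnmt1 the nearest of 5122 were Tpst1, Arhgef25 and Prkce (0.119 to 0.148), and for Dnmt3a the nearest of 2998 were Arid1a, 2700029M09Rik and Zfand5 (0.029 to 0.044). Arid1a, a subunit of the BAF remodelling complex, was at 17.9, 15.8, 19.4 and 18.5 FPKM. For Tet1 the nearest of 3432 were Tgfb1i1, Zfp9 and Pcdhb11 (0.028 to 0.131), for Mbd2 of 4635 Zfp617, Dnajc6 and Rasl11a (0.028 to 0.073), and for Mbd3 of 2449 Capzb, 1810014F10Rik and Dctn2 (0.038 to 0.049). These distances rest on 4 libraries and describe likeness of profile alone.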

How the data were processed

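Poly(A) RNA from 4 sorted P12 retinal cell samples was sequenced by the authors as 36-base single-end reads with a kit that does not mark strand. Per the methods and the submitters' processing notes, bcl2fastq 1.8.4, TopHat2 2.0.8b on mm9 and Cufflinks 2.1.1 on RefSeq genes gave the deposited FPKM, with bounds and a status, for 23021 rows per library. Read totals were not used here, so absolute depth is unknown. Rows sharing a symbol were summed (235 symbols), 724 small RNA symbols were left out, and genes not OK in a pair were dropped from it. FPKM was compared as log2(FPKM + 1) with a 1.5-fold threshold in Python 3.11.15 with pandas 2.3.3 and numpy 2.4.6. SE was the width of the deposited bounds divided by 4. Where the lower bound was 0, as for Uhrf1 in Cd73P WT, it was the upper bound minus FPKM, divided by 2. Each group held 1 library, so nothing could be checked against replicates. Groups came from sample titles. Named genes were the members, Dnmt3l, Tdg, the 3 highest by mean FPKM in each pathway list, label checks and the 3 nearest profiles per member with mean FPKM of at least 1; some items are not reported here. Other pseudocounts, scalings, thresholds and filters were tried. The members and lists were chosen with earlier results of these data known. Coordinates of genes are on mm9, from the loci deposited with the FPKM values. Strand and overlapping genes are from the GENCODE annotation of that build.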

Additional observations from a re-analysis of the deposited data

Results flagged for a closer look

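Results are listed here where the libraries of the 2 fractions, or of the 2 genotypes, differed in opposite directions; with 1 library per group none of these differences was tested. Among the members, Mbd3 was lower in Ezh2-cKO in Cd73N and marginally higher in Cd73P (log2 ratios -0.19 and 0.04; Cd73P minus Cd73N, 0.22), and the Cd73P value became -0.01 with equal FPKM sums. For Tdg the ratios were -0.44 and 0.34 (Cd73P minus Cd73N, 0.77). For Mbd6 they were 0.22 and -0.39 (Cd73P minus Cd73N, -0.61), and the same -0.61 separates its Cd73P to Cd73N ratio in Ezh2-cKO (-0.56) from that in WT (0.04). For Ehmt2 they were -0.28 and 0.07 (0.35), and for Ccna2 0.26 and -0.11 (-0.37). Each of these log2 ratios of Ezh2-cKO to WT was short of 1.5-fold. Of the genes named after their values were seen, Ogt had ratios of 1.21 and -0.35 (-1.56), and the same -1.56 separates its Cd73P to Cd73N ratio in Ezh2-cKO (-1.49) from that in WT (0.07). Gadd45g stood at 0.28 and -0.78 (-1.06) and Mta2 at -0.24 and 0.38 (0.62).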

How the results depend on the processing

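Over 36 member ratios and 180 alternative values, the sign changed in 6 values belonging to 5 ratios, each of which was short of 1.5-fold as reported; the other ratios kept their sign. Tet2 and Tet3 higher and Dnmt1, Tet1 and Mbd3 lower in Cd73P held under both scalings, Mbd3 only barely in Ezh2-cKO with the median gene set to 0 (-0.588). A pseudocount of 5 left Tet1 short of 1.5-fold in WT (-0.51), with Dnmt1 and Mbd3 still lower. With a pseudocount of 0.1 in place of 1, 5 members in place of 3 were lower in Cd73P in WT and 5 in Ezh2-cKO, since Dnmt3b and Uhrf1 joined, as the smaller added value by construction weighs less on genes under 1 FPKM. It also placed 2 members higher in Ezh2-cKO in Cd73N (Uhrf1 and Tet2), 1 higher in Cd73P (Uhrf1) and 1 lower in Cd73P (Tet1), where none were before. Equal FPKM sums placed 1 member, Tet2, higher in Ezh2-cKO in Cd73N. A 2-fold threshold left 1 member, Tet3, higher in Cd73P in Ezh2-cKO, where Tet2 had 0.96, and left 2 lower there, Dnmt1 and Tet1, since Mbd3 had -0.83. The midpoint of the deposited bounds, an alternative chosen after seeing the data, moved no ratio by more than 2 SE.

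Counts over all genes moved by over 1.5 times under some settings; the cause was not tested beyond what each setting does by construction. Of genes higher in Cd73P in WT (1969), a pseudocount of 5 left 1230 and a 2-fold threshold 1074, and of those lower (6056) these left 3976 and 3832. In Ezh2-cKO, 4071 (pseudocount of 5) and 4155 (2-fold) of 6317 lower genes and 1049 (2-fold) of 1825 higher genes were left. For Ezh2-cKO against WT in Cd73N, 1560 higher and 371 lower became 3256 and 767 with a pseudocount of 0.1, 621 and 177 with 5, and 645 and 71 at 2-fold. In Cd73P, 493 higher and 518 lower became 1432 and 1713, 184 and 132, and 164 and 144. No paired analysis was run, since the labels give no replicate numbers and do not tie the fractions to the same retinas; with genotype as the block, a fit would leave 1 residual degree of freedom. Counting error limits Uhrf1 in Cd73P most; variation between animals and sorts is unknown for every member.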
